A study of Mus musculus with 2 samples.

Results

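The 44 genes described here encode the receptors, adaptors, kinases, transcription factors and feedback inhibitors of Toll-like receptor, interleukin-1 (IL-1), tumour necrosis factor (TNF) and NF-kB signalling. They were chosen by name, from knowledge of the pathway, and matched to the count table through their Ensembl identifiers. Of the 44 genes, 42 were matched among 20823 listed genes, and Tlr4 and Traf1 were not analysed here. The counts came from messenger RNA of hepatocytes, sorted from livers of C57BL6J mice aged 8 weeks, with 1 library per group. The control library came from a mouse or mice given no agent, and the other library was made 24 h after acetaminophen (APAP) at 300 mg/kg by intraperitoneal injection. APAP is a painkiller that, in overdose, injures the hepatocytes that convert it to a reactive product. In both groups, cells positive for CD31, an endothelial surface protein, or CD45, a leukocyte surface protein, were removed by flow cytometry. From the remaining cells, 20000 hepatocytes with high surface Cxcr2, a chemokine receptor, were collected, so both libraries represent this selected population and not all hepatocytes. The number of mice behind each library is not given in the labels.

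In this pathway, Toll-like receptors bind microbial or damage-associated molecules, and the IL-1 and TNF receptors bind cytokines. Most Toll-like receptors and the IL-1 receptor signal through the adaptor MyD88 and IRAK kinases, and TNF receptors through TRAF proteins. Both branches activate the IKK complex. IKK marks the inhibitory I-kappa-B proteins for destruction, which frees dimers of the NF-kB subunits to enter the nucleus. NF-kB then switches on target genes that include its own inhibitors, so the response limits itself. In liver, the pathway is known for controlling acute phase secretion and for protecting hepatocytes from TNF-induced death.

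The promoters of feedback genes are known to carry the DNA letters that NF-kB recognises, and 4 promoters of members higher in the APAP library are printed here, with Nfkbia for contrast. These 4 were chosen because a window of theirs holds the 9-letter motif given below. The other 4 higher members in the promoter table, Tlr2, Il1r1, Irak3 and Nfkbie, had no match to this motif. Nfkbia encodes the best known I-kappa-B protein, was not higher, and was added after its values were seen. The sequences are from RefSeq on build GRCm38.p6, each from 250 bases before to 50 bases after a gene start, written in the direction of the gene. The counts were made on another build, mm39, and the windows were matched by gene symbol only. Capitals mark each match, on either strand, to the 9-letter motif GGNNTTTCC, a core of the NF-kB site in which N is any base.
Icam1, chr9:21015690-21015989, plus strand: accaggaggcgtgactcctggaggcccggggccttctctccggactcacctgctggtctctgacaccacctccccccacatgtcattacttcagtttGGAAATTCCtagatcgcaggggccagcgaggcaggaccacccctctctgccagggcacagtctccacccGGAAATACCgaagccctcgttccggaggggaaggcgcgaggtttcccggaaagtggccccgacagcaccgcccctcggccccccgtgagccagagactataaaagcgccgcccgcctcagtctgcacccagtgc
Tnfaip3, chr10:19015361-19015660, minus strand: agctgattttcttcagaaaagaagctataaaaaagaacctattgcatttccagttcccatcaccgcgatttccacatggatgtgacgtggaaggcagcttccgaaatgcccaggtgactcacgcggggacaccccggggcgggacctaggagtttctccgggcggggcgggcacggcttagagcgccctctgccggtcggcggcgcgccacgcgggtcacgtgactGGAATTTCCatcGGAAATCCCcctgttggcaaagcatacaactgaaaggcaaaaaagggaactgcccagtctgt
Nfkb2, chr19:46304487-46304786, plus strand: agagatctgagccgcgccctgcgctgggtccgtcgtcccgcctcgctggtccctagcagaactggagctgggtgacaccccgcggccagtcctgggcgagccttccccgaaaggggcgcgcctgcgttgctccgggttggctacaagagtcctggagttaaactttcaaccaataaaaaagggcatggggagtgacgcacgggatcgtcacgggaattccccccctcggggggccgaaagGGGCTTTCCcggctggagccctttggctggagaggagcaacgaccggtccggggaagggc
Il1rn, chr2:24345121-24345420, plus strand: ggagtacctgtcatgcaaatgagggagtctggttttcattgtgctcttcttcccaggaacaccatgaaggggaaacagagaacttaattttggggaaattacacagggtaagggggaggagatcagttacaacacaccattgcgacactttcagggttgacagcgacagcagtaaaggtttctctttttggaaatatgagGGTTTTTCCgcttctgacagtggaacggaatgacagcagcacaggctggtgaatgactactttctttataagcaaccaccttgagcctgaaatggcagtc
Nfkbia, chr12:55492598-55492897, minus strand: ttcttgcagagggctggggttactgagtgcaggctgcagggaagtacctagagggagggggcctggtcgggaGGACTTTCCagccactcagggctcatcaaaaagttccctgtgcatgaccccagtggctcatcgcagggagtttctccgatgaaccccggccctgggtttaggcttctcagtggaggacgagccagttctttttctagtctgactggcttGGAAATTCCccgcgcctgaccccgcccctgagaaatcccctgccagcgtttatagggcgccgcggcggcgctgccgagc

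Tnfaip3 held 2 matches that began 24 and 12 bases before the gene start, GGAATTTCC and, read on the other strand, GGGATTTCC. In Icam1 the matches began 153 and 84 bases before the start, and in Nfkbia 178 and 29 bases before it. Nfkb2 had 3 listed starts, each with 1 match in its window, and the window shown is that of the start farthest upstream. Il1rn had 3 listed starts, of which 2 have overlapping windows that hold the same match and the third has none. Tnfaip3 had a second window, also without a match. A symbol in the promoter table was found for 33 of the 42 matched members. At least 1 window of 15 of these 33 genes (45.5%) held the motif, against 6.62% of all 27025 genes in the table. The wider motif GGNNNTTCC, which includes every match of the first, occurred for 22 of 33 members (66.7%) and for 20.7% of all genes. Among members in the table, 4 of 8 that were at least 2-fold higher held the 9-letter motif, and so did 10 of 24 that were neither 2-fold higher nor lower. For the wider motif these counts were 7 of 8 and 14 of 24, and Tlr2, Il1r1 and Nfkbie were among the 7. A match in this window is a description of the letters and shows no binding.

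The libraries held 52419864 counts for control and 51009898 for APAP. Levels are given as CPM, counts scaled to an effective library total of 1000000 by the TMM method, and a ratio is the CPM in the APAP library over that in the control library, with its 95% counting interval. Intervals cover counting error only, and since each group was a single library, differences have neither a p-value nor a check against replicates and are between these 2 libraries. Other scalings matter: with plain total counts every log2 ratio was 0.35 higher than with TMM. Of 12 hepatocyte markers, 11 were matched, and all 11 were counted in both libraries, with a summed level of 69256 CPM for control and 75044 CPM for APAP. The sum was higher through Alb (29194 and 45856 CPM) and Apoa1 (5612 and 8914 CPM). With TMM the other 9 markers had intervals below 1, and the median log2 ratio over the 11 was -0.16. This depended on the scaling: with total counts 7 of the 11 had ratios above 1, and the median was 0.19. Cyp2e1, the enzyme that activates APAP, was 8.92-fold lower and Fabp1, a fatty acid carrier, 2.83-fold lower. The sort gene Cxcr2 had 0 and 2 counts, which is too few for a ratio, and Ptprc, the gene of CD45, was not analysed here. In bulk RNA, a change in the number of cells of a type and a change in RNA per cell cannot be told apart.

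As a group, the members did not move together. Il1r1, Il1rn, Tnfaip3, Nfkbie and Icam1 were among the genes at least 2-fold higher, while the main signalling chain from Myd88 to Rela lay within 2-fold of control. The flagellin receptor gene Tlr5 was 2.60-fold lower. To count as higher or lower, a gene needed a change of at least 2-fold in that direction, an interval that excluded 1 and at least 20 counts over both libraries. By this rule 12 of the 41 members with enough counts were higher, or 29.3%, and 1 was lower, against a background of 10.7% higher and 7.09% lower among all 14096 genes with enough counts. The median log2 ratio of these 41 members was 0.32, against 0.0222 for all genes. With total counts these medians were 0.67 and 0.37, and 14 members were higher and 1 lower, against 17.3% higher and 4.44% lower among all genes.

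Low control counts bear on these numbers, because 6 of the 12 higher members had fewer than 20 counts in the control library and could pass the count minimum through the APAP library alone. Of the 34 members with at least 20 counts in the control library, 6 were higher and 1 was lower, while 6.07% of all genes with at least 20 control counts were higher. Of the 8 members below 20 control counts, 7 had enough counts in both libraries together and 6 of these were higher. Among all 1683 such genes, 45.2% were higher. With other count minimums the members gave 7 higher and 1 lower at 100 or more counts (all genes 7.14% and 5.54%). They gave 6 and 1 at 20 or more counts in each library (6.24% and 5.34%), and 13 and 1 with no minimum (9.42% and 6.29%). DESeq2 size factors and the authors' normalized values, in effect the same scaling, gave 12 and 1 (10.6% and 7.28%). Totals without genes above 1% gave 14 and 1 (17.2% and 4.46%), and halved counts gave 12 and 1 (9.0% and 6.26%). A 1.5-fold rule gave 14 and 3 (17.6% and 13.1%). The plot of levels shows this split between members at several CPM in both libraries and members near 0 in the control library.

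**Figure D1:**
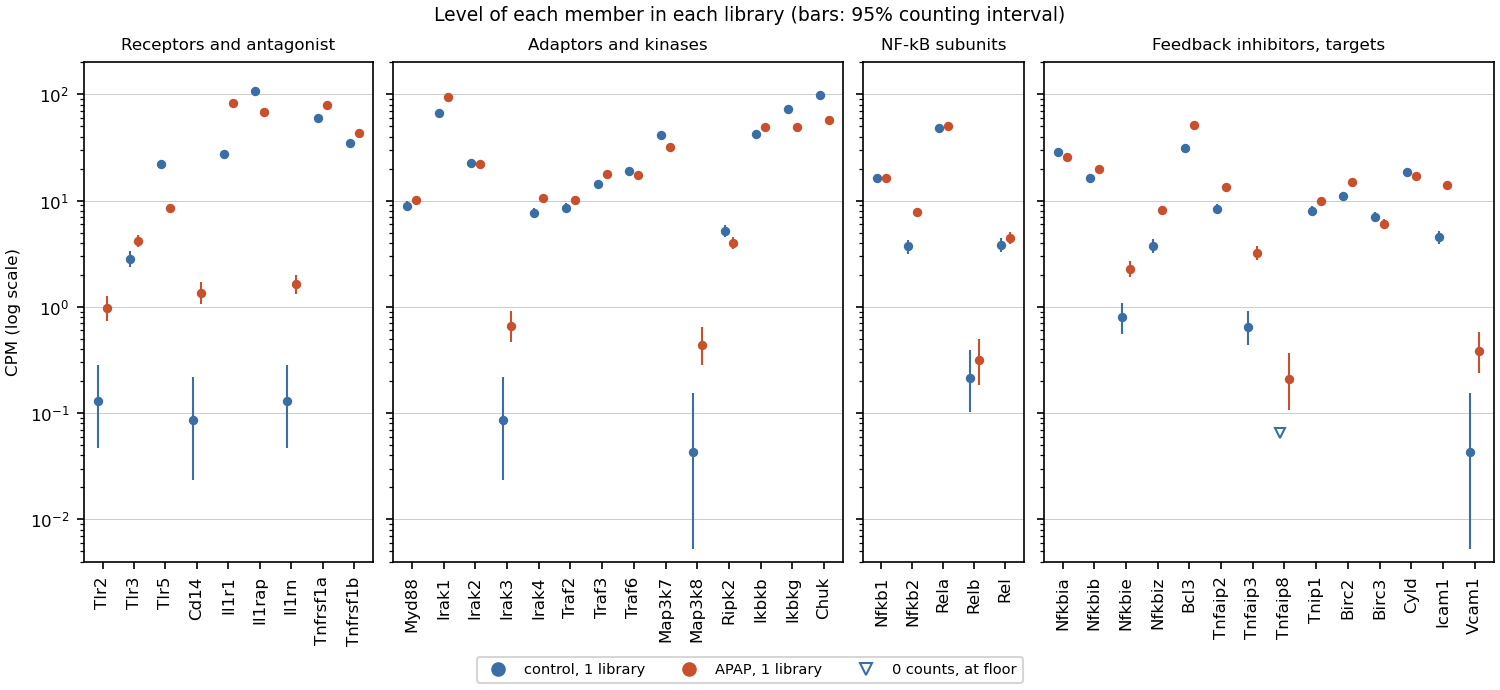
Level of each of the 42 matched members in the control library (blue) and the APAP library (orange), in CPM on a log axis, with 95% Poisson counting intervals as bars. A triangle marks 0 counts, drawn at the floor of 3 counts. Most signalling genes sit at similar levels in both libraries. Tlr2, Cd14, Il1rn, Irak3, Map3k8, Tnfaip8 and Vcam1 lie below 0.2 CPM in the control library alone.

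Among the receptors, the IL-1 branch differed most at appreciable levels. Il1r1 (ENSMUSG00000026072), the signalling receptor of IL-1, had 1283 counts in control and 4743 after APAP, 27.6 and 82.5 CPM. Its ratio was 2.99 (2.81 to 3.18). Il1rap, the accessory chain that Il1r1 needs to signal, went the other way, with 5008 and 3929 counts, 108 and 68.3 CPM. It was 1.58-fold lower (1.51 to 1.64), short of the 2-fold rule, and also lay below 1 with total counts, at a ratio of 0.806. The count of Il1r1 was 0.256 times that of Il1rap in the control library and 1.21 times in the APAP library. This change of 4.71 times (4.37 to 5.08) compares genes within a library and does not depend on the scaling of totals.

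Il1rn (ENSMUSG00000026981), which encodes the secreted antagonist that blocks the IL-1 receptor, had 6 counts in control and 94 after APAP, 0.129 and 1.63 CPM. Its ratio was 12.7 (5.61 to 35.4). The antagonist transcript was thus near the floor of 3 counts in control and low in both libraries. Relative to Il1r1 counts, Il1rn was 4.24 times higher (1.85 to 9.70) in the APAP library.

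The Toll-like receptors and their co-receptor split by gene. Tlr5 (ENSMUSG00000079164), the receptor for bacterial flagellin, had 1028 and 489 counts, 22.1 and 8.51 CPM, and was 2.60-fold lower (2.33 to 2.90). It was the member with the largest downward ratio, and also met the rule with total counts, at a ratio of 0.489. Tlr2 (ENSMUSG00000027995), which senses bacterial lipoproteins, had 6 and 56 counts, 0.129 and 0.974 CPM, a ratio of 7.55 (3.26 to 21.4). Cd14 (ENSMUSG00000051439), a co-receptor that hands lipopolysaccharide to Toll-like receptors, had 4 and 78 counts, 0.0860 and 1.36 CPM, a ratio of 15.8 (5.92 to 59.3). Both were close to 0 in the control library. Tlr3, the endosomal receptor for double-stranded RNA, was at 2.84 and 4.19 CPM, a ratio of 1.48 (1.19 to 1.84) that stayed under 2-fold.

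Both TNF receptors were plainly present in each library and differed little. Tnfrsf1a, the main death and survival receptor of TNF, was at 60.1 CPM in control and 79.8 CPM after APAP, a ratio of 1.33 (1.27 to 1.39). Tnfrsf1b, the second TNF receptor, was at 34.8 and 43.1 CPM, a ratio of 1.24 (1.16 to 1.32). The balance of the pair differed little: the count ratio of Tnfrsf1b to Tnfrsf1a was 0.580 and 0.540, a change of 0.932 (0.862 to 1.01). Of the 9 matched receptor-side genes, 4 (44.4%) were higher, 1 (11.1%) was lower and 4 met neither rule, against 10.7% and 7.09% of all genes, with a median log2 ratio of 0.56. Of the 4 higher genes, Tlr2, Cd14 and Il1rn passed the count minimum through the APAP library alone. With at least 20 counts in each library 1 receptor gene was higher, and with at least 100 counts in all 2 were.

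The adaptors and kinases just below the receptors were mostly near control level. Of the 14 matched genes 2 (14.3%) were higher and 0 lower, against 10.7% and 7.09% of all genes, with a median log2 ratio of 0.21. Both, Irak3 and Map3k8, passed the count minimum through the APAP library alone, and with at least 20 counts in each library 0 were higher. Myd88, the shared adaptor of most Toll-like receptors and the IL-1 receptor, was at 8.90 and 10.04 CPM, and its interval held 1 (0.992 to 1.28). Its exons share 11.4% of their bases with Acaa1a on the opposite strand, and since the strand setting was not given, reads of both genes cannot be told apart there. Irak4, the first kinase recruited by MyD88, was at 7.65 and 10.5 CPM, a ratio of 1.37 (1.196 to 1.56). Its exons share 8.30% of their bases with Twf1 on the opposite strand, which held 1593 and 2099 counts, so the same limit applies. Irak1, the kinase that Irak4 activates, was at 66.5 and 94.5 CPM, a ratio of 1.42 (1.36 to 1.49). Both were thus higher by less than 2-fold, and their count ratio changed by 1.04 times (0.906 to 1.19). Irak2, a kinase that sustains the later response, was at 22.4 and 21.8 CPM, with an interval of 0.895 to 1.06 that held 1, and lay above 1 with total counts at 1.24.

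Irak3 (ENSMUSG00000020227), a member of the IRAK family that dampens the signal, stood apart from the other IRAK genes. It had 4 counts in control and 38 after APAP, 0.0860 and 0.661 CPM, a ratio of 7.68 (2.77 to 29.6). The transcript was scarce in both libraries, and 6.83% of its exon bases overlap genes on the opposite strand, among them Tmbim4. The overlapping genes held 1356 and 1542 counts, and their part in the Irak3 counts was not tested. Map3k8 (ENSMUSG00000024235), a kinase that links NF-kB1 to the ERK pathway, had 2 and 25 counts, 0.0430 and 0.435 CPM, a ratio of 10.1 (2.52 to 88.1). It was the least abundant of the higher members in the adaptor and kinase group.

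The ubiquitin ligase adaptors of the TRAF family were within 1.5-fold of control. Traf2, which couples TNF receptors to survival signals, was at 8.56 and 10.2 CPM, a ratio of 1.19 (1.04 to 1.35). Traf3, a brake on the non-canonical pathway, was at 14.2 and 17.7 CPM, a ratio of 1.25 (1.13 to 1.38). Traf6, the ligase that relays the MyD88 signal, was at 19.1 and 17.2 CPM, with a ratio of 0.901 (0.822 to 0.987), which total counts moved above 1. Map3k7, which encodes TAK1, the kinase that activates IKK, was at 41.6 and 31.7 CPM, 1.31-fold lower (1.23 to 1.40). Ripk2, a kinase best known downstream of the NOD receptors, was at 5.16 and 4.02 CPM, a ratio of 0.779 (0.647 to 0.937). With total counts the ratios of Map3k7 and Ripk2 came close to 1, at 0.967 and 0.989.

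The 3 genes of the IKK complex did not shift in parallel. Chuk (ENSMUSG00000025199), the catalytic subunit IKK-alpha, had 4610 counts in control and 3311 after APAP, 99.1 and 57.6 CPM, and was 1.72-fold lower (1.65 to 1.80). Ikbkg, the regulatory subunit NEMO, was at 72.4 and 49.0 CPM, 1.48-fold lower (1.40 to 1.55). Ikbkb (ENSMUSG00000031537), the catalytic subunit IKK-beta that phosphorylates I-kappa-B proteins, had 1950 and 2856 counts, 41.9 and 49.7 CPM, a ratio of 1.18 (1.12 to 1.26). None of the 3 met the 2-fold rule, and Chuk and Ikbkg lay below 1 with total counts too, at 0.738 and 0.860. The count ratio of Ikbkb to Chuk went from 0.423 to 0.863, a change of 2.04 times (1.90 to 2.19) that is independent of scaling.

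**Figure D2:**
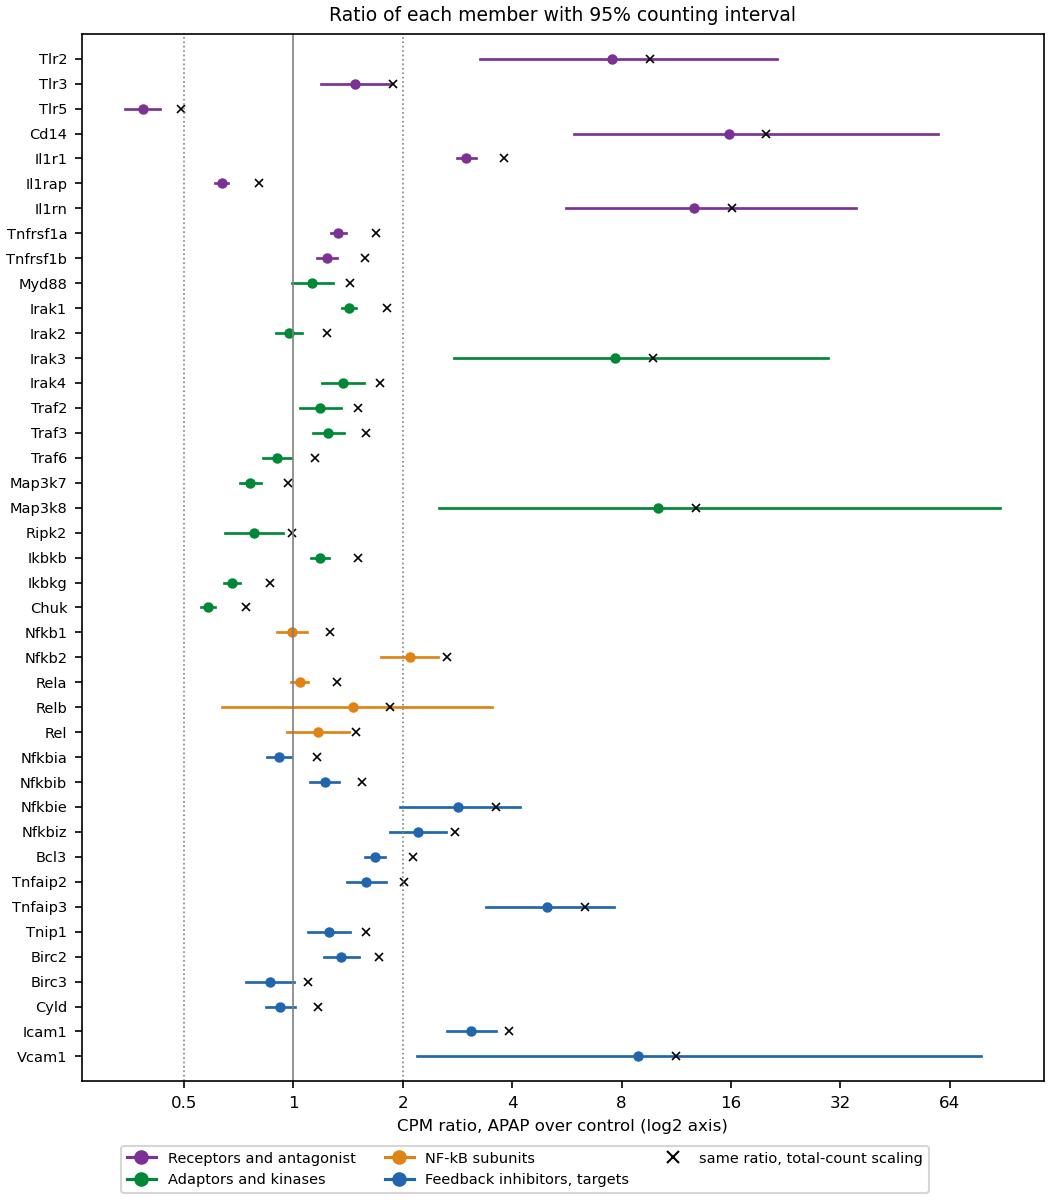
CPM ratio of APAP over control for the 41 members with at least 20 counts in both libraries together, on a log2 axis, with 95% counting intervals as bars and coloured by role. Crosses give the ratio with total counts, and dotted lines mark 2-fold in each direction. Tlr5 alone lies beyond 2-fold on the low side, and the widest intervals belong to members with 2 to 6 control counts.

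Of the 5 NF-kB subunits, Nfkb2 alone met the rule. That is 1 (20%) higher and 0 lower, against 10.7% and 7.09% of all genes, with a median log2 ratio of 0.22. Nfkb2 (ENSMUSG00000025225), the precursor of the non-canonical subunit p52, had 172 and 444 counts, 3.70 and 7.72 CPM, a ratio of 2.09 (1.75 to 2.50). Its lower bound lay under 2, and 19.7% of its exon bases overlap other genes on the opposite strand, which held 40 and 63 counts. Rela, the main activating subunit p65, had 2238 and 2876 counts, 48.1 and 50.02 CPM, a ratio of 1.04 (0.983 to 1.10). Nfkb1, the precursor of p50, was at 16.4 and 16.2 CPM, with a ratio of 0.992 (0.900 to 1.09), which total counts moved to 1.26. For both, no difference was detectable beyond counting error in the TMM scaling. Rel, a subunit best known in lymphocytes, was at 3.83 and 4.47 CPM, with an interval of 0.961 to 1.42. Relb, the usual partner of p52, had 10 and 18 counts, and its interval of 0.637 to 3.53 was too wide to show a direction. The count ratio of Nfkb2 to Nfkb1 changed from 0.226 to 0.475, by 2.11 times (1.72 to 2.57), whereas that of Nfkb1 to Rela changed by 0.954 times (0.854 to 1.07).

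Among the I-kappa-B proteins and their relatives, the abundant and the scarce genes differed. Nfkbia (ENSMUSG00000021025), whose promoter with 2 motif matches is shown above, had 1321 and 1488 counts, 28.4 and 25.9 CPM. Its ratio of 0.911 (0.846 to 0.982) lay slightly below 1, but above 1 with total counts at 1.16. Nfkbib, the second classical inhibitor, was at 16.3 and 19.8 CPM, a ratio of 1.22 (1.11 to 1.34). Nfkbie (ENSMUSG00000023947), the third, had 37 and 130 counts, 0.796 and 2.26 CPM, a ratio of 2.84 (1.96 to 4.21). It was the scarcest of these 3 inhibitors and the one that met the rule. Relative to Nfkbib, Nfkbie counts were 2.33 times higher (1.60 to 3.40) and Nfkbia counts were 0.748 times (0.665 to 0.842) their control ratio.

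The atypical nuclear members, which act on NF-kB bound to DNA, both had ratios above 1. Nfkbiz (ENSMUSG00000035356), which is needed for a subset of secondary targets, had 173 and 470 counts, 3.72 and 8.17 CPM, a ratio of 2.20 (1.84 to 2.63). Bcl3, a partner of p50 and p52 dimers, had 1438 and 2982 counts, 30.9 and 51.9 CPM, a ratio of 1.68 (1.57 to 1.79). Bcl3 stayed under 2-fold with TMM and passed it with total counts, at 2.13.

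The feedback enzymes and survival genes included the largest ratio among members with at least 20 control counts. Tnfaip3 (ENSMUSG00000019850), which encodes the ubiquitin-editing enzyme A20 that shuts down signalling, had 30 and 185 counts, 0.645 and 3.22 CPM, and its ratio was 4.99 (3.38 to 7.60). Relative to Rela, Tnfaip3 counts were 4.80 times higher (3.25 to 7.09). Tnip1, an A20-binding protein, was at 7.96 and 9.95 CPM, a ratio of 1.25 (1.10 to 1.43). Cyld, a deubiquitinase that also restrains the pathway, was at 18.6 and 17.1 CPM, with a ratio of 0.920 (0.839 to 1.01), which total counts moved above 1. So of these 3 restraining genes only the A20 gene met the rule, also with total counts and with halved counts.

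Birc2 and Birc3, neighbouring genes of the cIAP ubiquitin ligases that keep TNF signals from killing the cell, differed by less than 2-fold. Birc2 was at 11.0 and 14.8 CPM, a ratio of 1.35 (1.21 to 1.51). Birc3, the one of the pair better known as an NF-kB target, was at 7.03 and 6.05 CPM, with a ratio of 0.861 (0.738 to 1.004), which total counts moved above 1. The count ratio of Birc3 to Birc2 changed from 0.641 to 0.408, by 0.636 times (0.528 to 0.767). Tnfaip2, a TNF-induced gene, was at 8.39 and 13.3 CPM, a ratio of 1.58 (1.40 to 1.79) that passed 2-fold with total counts at 2.01. Tnfaip8, a regulator of cell death, had 0 counts in control and 12 after APAP. Against the floor of 3 control counts it was 3.24-fold higher, and the lower bound of its interval was 2.25. With 12 counts in all it was below the minimum of 20.

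Both adhesion molecule genes, classical NF-kB targets that leukocytes bind, were higher. Icam1 (ENSMUSG00000037405) had 209 counts in control and 798 after APAP, 4.49 and 13.9 CPM, a ratio of 3.09 (2.65 to 3.61). Vcam1 (ENSMUSG00000027962), best known on endothelium, had 2 and 22 counts, 0.0430 and 0.383 CPM, a ratio of 8.90 (2.19 to 78.1). Icam1 was thus clearly present in both libraries, while Vcam1 was near 0 in both. Of the 14 matched inhibitors and targets, 13 had enough counts, and 5 of these (38.5%) were higher and 0 lower, against 10.7% and 7.09% of all genes, with a median log2 ratio of 0.66. Vcam1 passed the count minimum through the APAP library alone, and with at least 20 counts in each library 4 were higher.

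**Figure D3:**
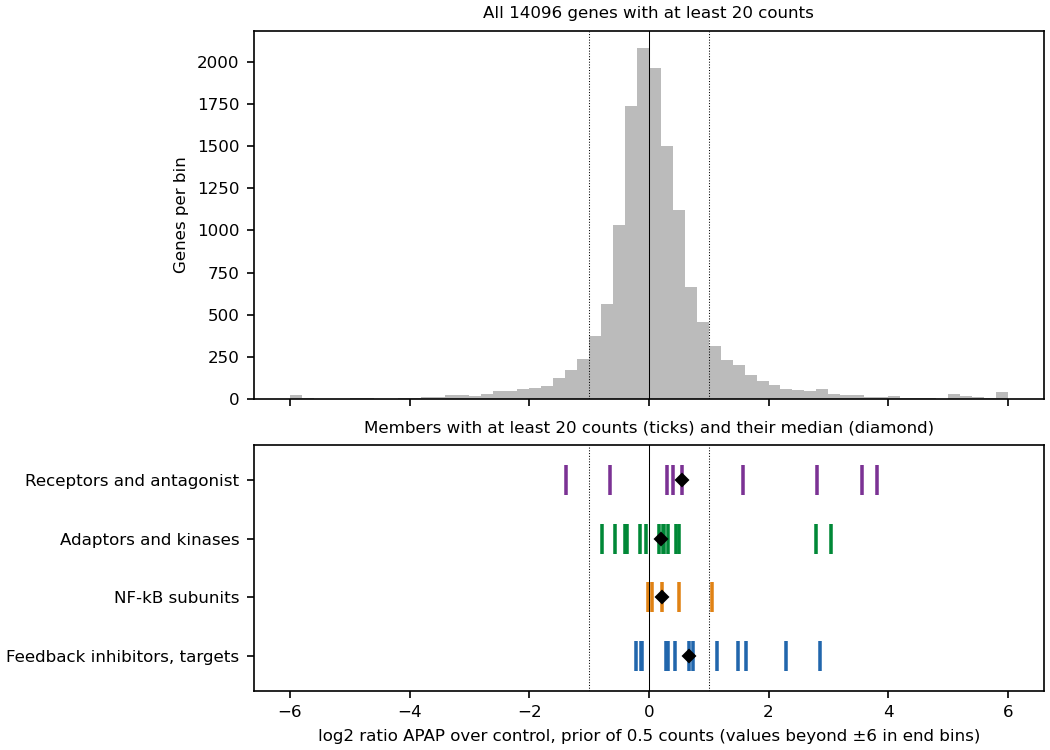
Upper panel, number of genes by log2 ratio of APAP over control for all 14096 genes with at least 20 counts. Lower panel, members as ticks in 4 roles with the median of each role as a diamond. The medians lie at 0.56, 0.21, 0.22 and 0.66, all on the high side of the median of all genes at 0.0222.

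**Figure D4:**
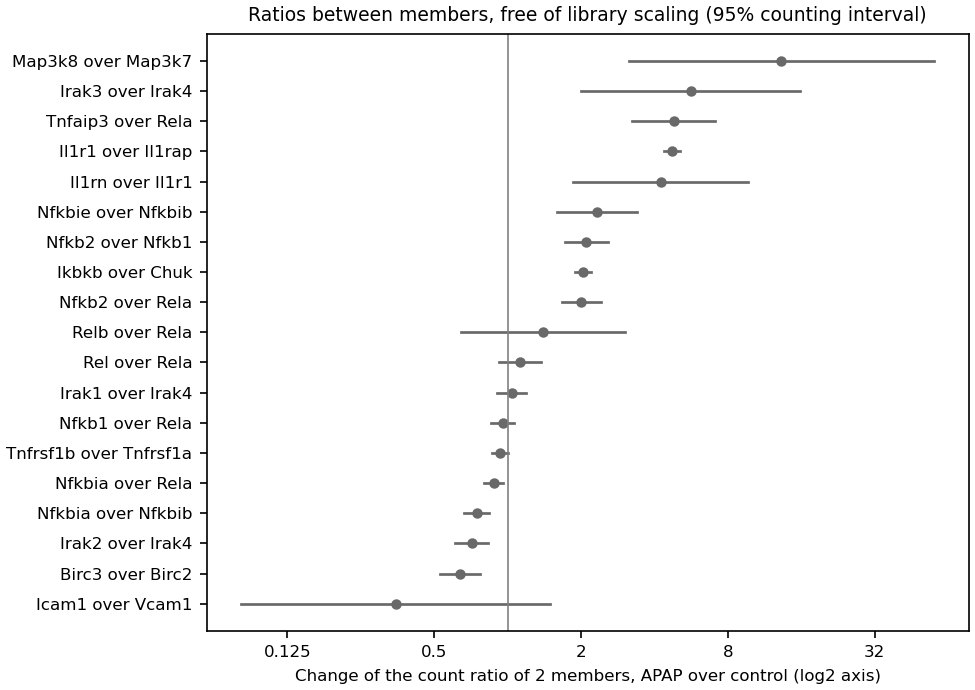
Change, from the control to the APAP library, of the count ratio between 2 members, for 19 pairs on a log2 axis with 95% counting intervals. The ratio of Il1r1 to Il1rap changed by 4.71 times with a narrow interval, and that of Birc3 to Birc2 fell to 0.636 times. Pairs with intervals across 1 include Nfkb1 over Rela and Irak1 over Irak4.

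Levels of different genes were compared per kilobase of exon. On that scale, in CPM per kilobase, Tnfrsf1a was the highest receptor gene in the control library at 27.9, followed by Il1rap at 12.5, Tnfrsf1b at 9.12, Tlr5 at 5.40 and Il1r1 at 4.51. In the APAP library Tnfrsf1a was again highest at 37.0, but Il1r1 came next at 13.5, ahead of Tnfrsf1b at 11.3, Il1rap at 7.94 and Tlr5 at 2.08. Il1r1 thus moved from the fifth to the second place among receptors. Within the IKK complex, Chuk was highest in both libraries, at 28.3 and 16.4 CPM per kilobase, and Ikbkb at 9.25 and Ikbkg at 9.87 in control stood at 11.0 and 6.68 in the APAP library. Among the inhibitors and targets, Nfkbia led in the control library at 18.0 and Bcl3 in the APAP library at 28.0 CPM per kilobase. Rela was the leading subunit in both, at 17.7 and 18.4 CPM per kilobase.

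Macrophage, stellate cell and cholangiocyte markers were, summed, higher in the APAP library, as the scarce members were, whereas lymphocyte markers (7.93 and 0.174 CPM) and erythroid and platelet markers (96.4 and 36.9 CPM) were lower. The 8 members with fewer than 20 control counts (Tlr2, Cd14, Il1rn, Irak3, Map3k8, Relb, Tnfaip8 and Vcam1) summed to 0.731 CPM in control and 5.97 CPM after APAP. Of 15 macrophage markers 8 were matched, and they summed to 0.0645 and 6.28 CPM. All but 1 of these 8 were at 0 in the control library. The lysosomal gene Cd68 had 3 and 287 counts, the receptor gene Csf1r had 0 and 24, and Cd5l had 0 and 16. Cd68 alone made up 4.99 of the 6.28 CPM in the APAP library. The other matched markers were scarce there too: Marco and Cd163 had 0 and 10 counts each, C1qc had 0 and 6, and C1qa and Lyz2 had 0 and 4 each. Tlr2, Cd14, Il1rn and Irak3 are also known as genes of myeloid cells. The part of such cells in their ratios was not tested.

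Endothelial markers were less uneven: all 13 were counted in both libraries, and they summed to 23.7 and 33.3 CPM, with Stab2 at 8.32 and 3.98 CPM, Eng at 2.71 and 5.08 CPM and Stab1 at 1.91 and 4.17 CPM. Pecam1, the gene of the CD31 protein used to remove endothelial cells, had 25 and 96 counts, and Cdh5, an endothelial cadherin, had 25 and 201. By the 2-fold rule 6 of the 13 (46.2%) were higher and Stab2 (7.69%) was lower, against 10.7% and 7.09% of all genes. Stellate cell and fibroblast markers, 11 of 12 matched and 5 at 0 in control, summed to 1.59 and 14.1 CPM, with Reln at 0.753 and 9.39 CPM, Ecm1 at 0.237 and 2.59 CPM and Dcn at 0.258 and 0.400 CPM. Cholangiocyte markers, 4 of 10 matched and 1 at 0 in control, summed to 17.8 and 51.8 CPM, with Sox9 at 99 and 1398 counts and Spp1 at 41 and 573 counts. Neutrophil markers were at 4 and 10 counts over the 2 genes matched of 12, Elane and Ly6g, of which Ly6g was at 0 in control. Their part in the members' results was not tested.

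**Figure D5:**
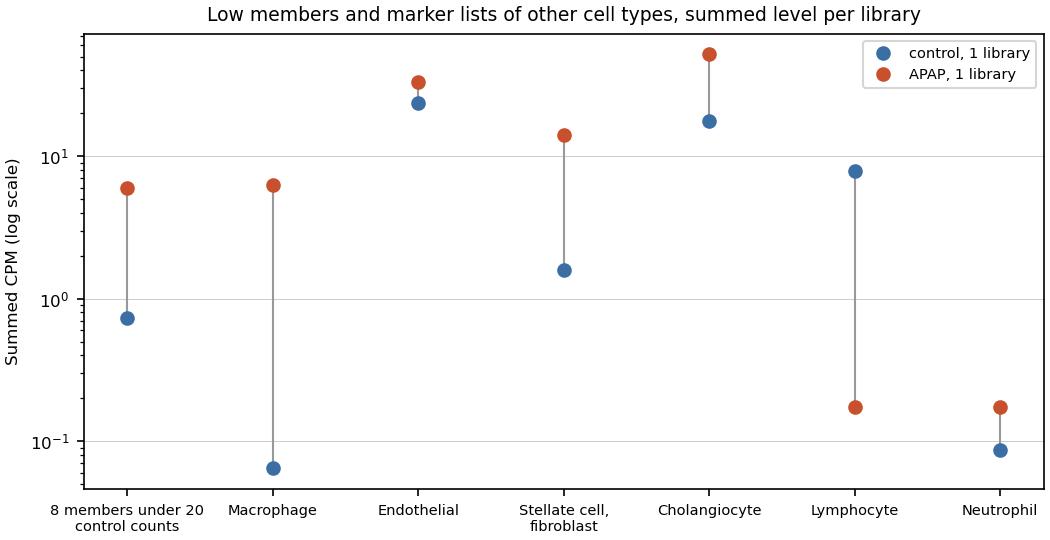
Summed CPM, on a log axis, of the 8 members with fewer than 20 control counts and of 6 marker lists of other cell types, in the control library (blue) and the APAP library (orange). The scarce members go from 0.731 to 5.97 CPM and the macrophage markers from 0.0645 to 6.28 CPM, while the lymphocyte markers go from 7.93 to 0.174 CPM. Of the macrophage sum in the APAP library, 4.99 CPM is Cd68.

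The rest of the pathway, 106 further genes in 6 lists, stayed mostly within 2-fold. Of 81 matched genes 63 had enough counts, and 6 of these (9.52%) were higher and 3 (4.76%) lower, near the shares of 10.7% and 7.09% among all genes. Their median log2 ratio was 0.0125. With total counts 13 (20.6%) were higher and 0 lower, against 17.3% and 4.44% of all genes in that scaling.

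Other receptors of the Toll and IL-1 families, with 4 of 8 matched genes above the minimum, gave 1 higher and 1 lower gene. Each is 25% of these 4, against 10.7% and 7.09% of all genes. Lbp, the secreted protein that delivers lipopolysaccharide to Cd14, had 3354 and 11112 counts, 72.1 and 193 CPM, a ratio of 2.68 (2.58 to 2.79). Tlr12, a mouse receptor for parasite profilin, was 2.31-fold lower (1.91 to 2.79), but not by the rule with total counts. Sigirr, a decoy-like inhibitor of IL-1 receptor signalling, was at 10.8 and 20.4 CPM, a ratio of 1.88 (1.69 to 2.09).

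Among 24 other adaptors, kinases and ubiquitin enzymes 3 (12.5%) were higher and 0 lower, near the 10.7% and below the 7.09% of all genes. Tab1, a partner of TAK1, had 62 and 205 counts, a ratio of 2.67 (2.004 to 3.61). Ikbke, the IKK-related kinase of interferon induction, was at 13.7 and 36.7 CPM, a ratio of 2.67 (2.45 to 2.93). Usp18, an interferon-induced protease, was at 3.66 and 7.46 CPM, a ratio of 2.04 (1.71 to 2.45). Tab2, an adaptor of TAK1 and one of the abundant genes of the list, had a ratio of 1.11 (1.06 to 1.16). IKK-related Ikbke thus differed by more than the IKK subunits themselves.

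None of the 3 measurable non-canonical and TNF superfamily receptor genes met the rule, against 10.7% higher and 7.09% lower among all genes. Ltbr, the lymphotoxin-beta receptor, was at 82.3 and 105 CPM, a ratio of 1.27 (1.22 to 1.33). Tnfrsf14, a receptor of the same superfamily, was at 2.90 and 1.90 CPM, 1.53-fold lower (1.18 to 1.99). Map3k14, the NIK kinase that starts processing of the Nfkb2 product, was at 1.40 and 2.64 CPM, a ratio of 1.89 (1.41 to 2.57), and passed 2-fold with total counts.

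Of the ligands, 7 of 15 were matched and 5 had enough counts, with 1 higher and 1 lower. Each is 20% of these 5, against 10.7% and 7.09% of all genes. Tnf and Il1b were not analysed here, and Il1a had 0 and 4 counts. Il33, an alarmin of the IL-1 family, had 16 and 67 counts and a ratio of 3.39 (1.94 to 6.26). Il18, an inflammasome-processed cytokine, was 2.11-fold lower (1.77 to 2.52), at 7.44 and 3.53 CPM, though not by the rule with total counts. Hmgb1, a nuclear protein that acts as an alarmin when released, was at 39.7 and 30.6 CPM.

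Of 14 further feedback and target genes with enough counts 1 was higher and 1 lower, 7.14% each, against 10.7% and 7.09% of all genes. Ier3, an early response gene, had 22 and 87 counts and a ratio of 3.20 (1.99 to 5.37). Tifa, a TRAF-interacting adaptor, was 2.42-fold lower (2.10 to 2.80) at 12.3 and 5.10 CPM, but not by the rule with total counts. Zfp36, which destabilises cytokine messengers, was at 279 and 364 CPM, a ratio of 1.31 (1.28 to 1.33). Sod2, a mitochondrial superoxide dismutase and known NF-kB target, was at 195 and 134 CPM, 1.46-fold lower (1.41 to 1.502). In the mitogen-activated kinase arm 0 of 13 genes met either rule, against 10.7% higher and 7.09% lower among all genes. With total counts 1 of the 13 was higher and 0 lower, against 17.3% and 4.44% of all genes. Its most abundant genes Dusp1 and Mapk14 were at 148 and 120 CPM and at 73.5 and 81.5 CPM.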

How the data were processed

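Counts per gene were deposited by the authors as raw, unnormalized whole numbers for 2 libraries, 1 per group. HISAT2 and Subread were used on build mm39, per the submitters' processing notes; versions, annotation, strand setting and handling of read pairs are not given in the sources used here. A second deposited table held a normalized signal, the counts divided by 1 size factor per library, and served as an alternative scaling. Identifiers were matched to symbols for 20679 of 20823 genes. Totals were scaled by TMM (edgeR 4.0.16, R 4.3.3), giving effective totals of 46508421 for control and 57493500 for APAP. Ratios carry exact conditional Poisson intervals, and single levels exact Poisson intervals, at 95%; log2 medians used a prior of 0.5 counts. Count ratios between members carry log-normal intervals. For genes at 0, a floor of 3 counts per library was used, 0.0645 CPM for control and 0.0522 CPM for APAP. Reads had no molecular identifiers, and of counts from 1 to 20, 68.3% in control and 70.6% in APAP were even, and if both mates of a pair were counted, intervals understate the error. Exon lengths and overlaps came from GENCODE vM21, on another build. Python 3.11.15 with scipy 1.17.1 was used, and the steps were tested on simulated data. The members and lists were chosen with earlier results of these data known. All members are named; of the other lists, the 2 most abundant genes and up to 4 per direction that met the rule (markers: the 3 most abundant), and any further gene was chosen after its values were seen; 2 genes that this rule names are not reported here. Protein sequences planned for the I-kappa-B genes were not used here. Alternatives were total counts, DESeq2 1.42.0 size factors, the authors' normalized signal, totals without genes above 1%, other count minimums, halved counts and a 1.5-fold rule.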

Additional observations from a re-analysis of the deposited data

How the results depend on the processing

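No paired analysis was possible because each group had 1 library; for the same reason no replicate could be left out. No member that met the 2-fold rule changed direction under any scaling. The calls of 0 members changed with DESeq2 size factors, with the authors' normalized signal or with halved counts, and those of 2 members, Bcl3 and Tnfaip2, with total counts and without genes above 1%. DESeq2 size factors and the authors' normalized signal shifted log2 ratios by the same -0.0169 from TMM, so they are 1 scaling and not 2 separate checks. Of 12 members below 1, 6 lay above 1 with total counts. The median log2 ratio of members was 0.67 with total counts and 0.66 without genes above 1%. The count of higher members was 7 with at least 100 counts and 6 with at least 20 counts in each library, an alternative chosen after seeing the data; both remove genes that are scarce in the control library. A 1.5-fold rule gave 3 lower members. Over all genes, higher and lower counts were 2435 and 626 with total counts, 2423 and 629 without genes above 1%, 817 and 634 with at least 100 counts, 2485 and 1843 with the 1.5-fold rule, and 753 and 645 with at least 20 counts in each library. Pathway genes were 13 higher (20.6%) and 0 lower with total counts (all genes 17.3% and 4.44%) and also without genes above 1% (17.2% and 4.46%). With the 1.5-fold rule they were 13 (20.6%) and 6 (9.52%), against 17.6% and 13.1% of all genes. Markers of all lists were 20 higher (36.4%, all genes 9.42%) with no count minimum. With at least 20 counts in each library 7 were higher (25%, all genes 6.24%). Depth limits Relb and Tnfaip8, and the intervals of members with 2 to 6 control counts.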

Other observations

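Lymphocyte markers, 4 of 12 matched, went the opposite way to the macrophage markers, from 7.93 CPM in the control library to 0.174 CPM in the APAP library. Ighm, the immunoglobulin mu heavy chain, had 277 and 6 counts, Cd4, a helper T cell receptor, had 89 and 4, and Cd79a had 2 and 0. Of the erythroid and platelet markers, Alas2, the erythroid haem synthesis enzyme, was at 95.7 and 36.4 CPM, 2.63-fold lower (2.50 to 2.77), and Itga2b, a platelet integrin, had 32 counts in each library. None of these genes is known as a defining hepatocyte gene, and their part in the pathway results was not tested.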
